A study of Drosophila melanogaster with 59 samples.

Results

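The mir-309 cluster of Drosophila melanogaster is a run of 8 microRNA hairpins, mir-309, mir-3, mir-286, mir-4, mir-5, mir-6-1, mir-6-2 and mir-6-3, transcribed from 1 strand. The hairpins were taken by name from the small RNA tables, and all 8 had an entry among the 256 hairpins measured. The cluster was picked with the high mir-286 of w1118 eggs already known, so the egg levels of mir-286 and mir-5 against w1118, and against heads, are given as a description with no test. In the RefSeq annotation of Release 6 they lie on 2R from 19660716 to 19661774, a span of 1059 bp with gaps of 42 to 73 bp between neighbours. The span is inside the long noncoding RNA gene lncRNA:CR44504 (2R:19659645-19661847). The nearest protein-coding genes are CG15125, 1116 bp away at lower coordinates, and CG11018, 661 bp away at higher coordinates.

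A microRNA is cut from a hairpin in its primary transcript, is loaded into an Argonaute protein and pairs through its seed with target mRNAs, which are then repressed and degraded. In Drosophila the mir-309 cluster is known as one of the earliest zygotic transcripts. It is activated by the pioneer factor Zelda at the maternal-to-zygotic transition, and its microRNAs promote the clearance of maternal mRNAs in the early embryo. The seeds fall into known families. mir-309 and mir-3 share theirs with mir-318, mir-286 with mir-279 and mir-996, mir-4 with mir-79, and the mir-6 hairpins with the mir-2, mir-11 and mir-308 group.

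Small RNA of 18 to 30 nt and long RNA above 200 nt were sequenced from unfertilized eggs and from heads of 4-day-old adult males. All 4 lines had an Oregon-R background and the w1118 genotype. Red* and White*, labelled as Fab2L lines, and Fab2L itself carry in addition the Fab2L transgenic insertion, and for the line called w1118 no insertion is labelled. Each line, tissue and RNA class had 2 libraries. Red*, White* and Fab2L are called the Fab2L-bearing lines here and gave 6 egg libraries against 2 of w1118. Whether the 2 libraries of a line came from separate cultures is not stated, so p-values measure only how these libraries vary, and that variation may be technical. For the eggs, the text on extraction speaks of adult male heads, against the sample titles, which were followed here.

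Hairpin counts summed to 0.270 to 1.14 M per egg library and to 12021253 to 20222578 per head library, so that the same share rests on fewer counts in eggs. The 5 most abundant egg hairpins, mir-311, mir-312, mir-92b, mir-275 and mir-9c, held 78.7% to 82.9% of the egg counts. The 13 hairpins of the maternal list, with mir-311, mir-312 and mir-92b as the most abundant, together made 729991 to 780147 counts per 1 M hairpin counts (CPM, with no scaling factor) in Fab2L-bearing eggs and 737098 to 739789 in w1118 eggs, against 46215 to 61778 in heads. Not every hairpin of that list was higher in eggs: mir-184 had 17685 to 31216 CPM in eggs against 41048 to 57149 in heads. mir-989 was low in both tissues, at 0 to 15.8 CPM in eggs, from 0 to 7 counts per library, and 0.0757 to 0.663 in heads.

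Summed over its 8 hairpins, the cluster was a small fraction of the microRNA counts in every library, and that fraction was largest in w1118 eggs. It held 72 and 52 counts in Red* eggs, 45 and 30 in White* eggs, 28 and 26 in Fab2L eggs, and 866 and 1165 in w1118 eggs. As a share of all hairpin counts this was 0.00631% and 0.00605% in Red*, 0.00582% and 0.00522% in White*, 0.00882% and 0.00963% in Fab2L, and 0.201% and 0.232% in w1118. Both w1118 libraries lay above all 6 others, as they did for 27.4% of the 73 hairpins with a mean of at least 10 egg counts. In heads the cluster share was 0.00572% to 0.00678% in the 6 Fab2L-bearing libraries and 0.00617% and 0.00625% in the 2 w1118 libraries, so that the w1118 values fell inside the range of the others. Fewer cells with a microRNA and less of it per cell cannot be told apart in such bulk samples.

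mir-286 carried most of the cluster counts. It had 62 and 41 counts in Red* eggs, 40 and 24 in White* eggs, 22 and 21 in Fab2L eggs, and 822 and 1101 in w1118 eggs. In CPM these are 54.4 and 47.7 in Red*, 51.7 and 41.8 in White*, 69.3 and 77.8 in Fab2L, and 1907 and 2190 in w1118. The highest Fab2L-bearing library, at 77.8 (95% Clopper-Pearson interval 48.2 to 119), was far below the lower w1118 library, at 1907 (1779 to 2042). These intervals cover counting error only. mir-286 was the 24th and 22nd most abundant hairpin of the w1118 egg libraries and between the 49th and the 61st of the others.

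In the edgeR fit of the 8 egg libraries, the log2 fold change of mir-286 was -5.30 (SE 0.20) for Red* over w1118, -5.22 (SE 0.21) for White* over w1118 and -5.04 (SE 0.22) for Fab2L over w1118. For the mean of the 3 lines over w1118 it was -5.19 (SE 0.13). Over pooled counts, Fab2L-bearing eggs had 0.0259 of the w1118 level. The egg libraries differed between lines at many hairpins. By edgeR's quasi-likelihood test with Benjamini-Hochberg adjustment, 40.8% of the 76 tested were called lower and 11.8% higher in this mean comparison, and the median log2 fold change of the 76 was -0.13. In the single comparisons 25% (Red*), 39.5% (White*) and 44.7% (Fab2L) of the 76 were called lower than in w1118. mir-286 had the lowest value of the 76 in the mean comparison.

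mir-5 was the second member by abundance. Its counts were 8 and 11 in Red* eggs, 5 and 6 in White* eggs, 5 and 5 in Fab2L eggs, and 39 and 57 in w1118 eggs. That is 7.01 and 12.8 CPM in Red*, 6.46 and 10.4 in White*, 15.8 and 18.5 in Fab2L, and 90.5 and 113 in w1118. As for mir-286, both w1118 libraries lay above all 6 others, which held for 27.4% of the 73 hairpins with a mean of at least 10 egg counts. The log2 fold change of mir-5 over w1118 was -3.38 (SE 0.40) for Red*, -3.40 (SE 0.45) for White* and -2.81 (SE 0.47) for Fab2L. The mean of the 3 lines was at -3.20 (SE 0.32). Among the 8 members mir-286 and mir-5 passed the filter on low counts in eggs and the other 6 did not. With 5 to 11 counts in the Fab2L-bearing libraries, mir-5 owed its place in the egg fit to w1118, where it was high, so neither its difference from w1118 nor the number of members that passed is a result.

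**Figure D1:**
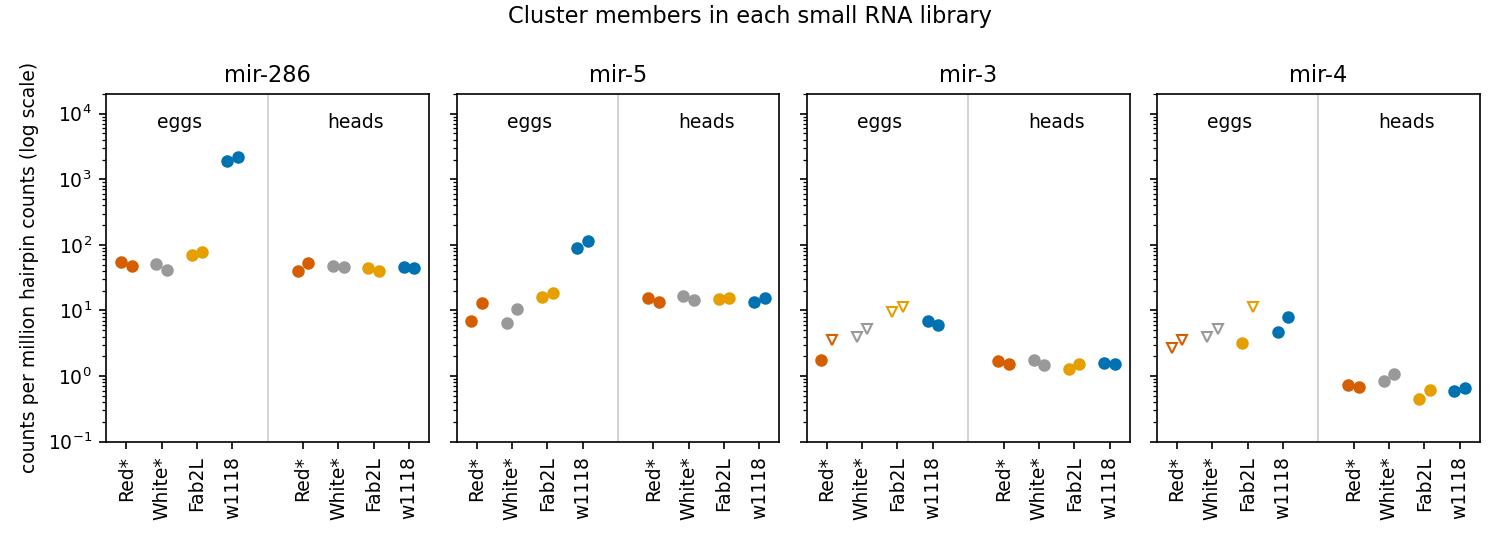
Counts per 1 M hairpin counts (CPM), on a log scale, of mir-286, mir-5, mir-3 and mir-4 in each library; the 8 egg libraries are left and the 8 head libraries right of the grey line, with Red*, White*, Fab2L and w1118 in this order. Filled points are measured values and open triangles mark, for a library with 0 counts, the level that 3 counts would give. The w1118 egg points of mir-286 (1907 and 2190) and mir-5 (90.5 and 113) stand above all others, while the head points of all lines lie together.

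mir-3 and mir-4 had only single counts in eggs. mir-3 had 2 and 0 counts in Red*, none in White* or Fab2L, and 3 and 3 in w1118. mir-4 had none in Red* or White*, 1 and 0 in Fab2L, and 2 and 4 in w1118. Pooled over libraries, mir-3 stood at 0.508 CPM in Fab2L-bearing eggs and 6.42 in w1118 eggs, a ratio of 0.0791 with an exact conditional interval of 0.00781 to 0.442. The same ratio for mir-4 was 0.0396 (0.00086 to 0.326), at 0.254 against 6.42 CPM. Both ratios were below 1, as for mir-286, on 8 and 7 counts in all, and the intervals cover counting error but not the spread between libraries. In the 2 Fab2L egg libraries, the shallowest, 0 counts of mir-3 allow up to 9.45 and 11.1 CPM, which takes in the w1118 level.

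mir-309 and the hairpins mir-6-1, mir-6-2 and mir-6-3 had 0 counts in all 8 egg libraries. Over the pooled 3935154 counts of the 6 Fab2L-bearing libraries, 0 counts allow up to 0.762 CPM, and over the 933870 counts of the 2 w1118 libraries up to 3.21. The mir-6 hairpins yield the same mature microRNA, and how reads shared between copies were counted is not given in the sources used here. Their values are therefore uncertain, in eggs and in heads.

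The lines that carry Fab2L were also set against each other in eggs. mir-286 had a log2 fold change of -0.26 (SE 0.26, adjusted p = 0.417) for Red* over Fab2L and -0.18 (SE 0.27, adjusted p = 0.755) for White* over Fab2L by edgeR. For mir-5 the values were -0.57 (SE 0.63) and -0.59 (SE 0.68). mir-5 entered the egg fit through its counts in w1118, so its values here are a description with no test. Red* over White* gave -0.077 (SE 0.24, adjusted p = 0.803 by edgeR) for mir-286 and 0.026 (SE 0.60) for mir-5. The sign for mir-286 turned under other scalings and without single libraries, and that for mir-5 only without single libraries. Of these 3 comparisons edgeR called mir-286 in 0, with an unadjusted p below 0.05 in 0, and DESeq2 called it in 0. Of the 76 hairpins edgeR called 28.9% (White* over Fab2L), 55.3% (Red* over Fab2L) and 67.1% (Red* over White*). With at most 62 counts of mir-286 and 11 of mir-5 per library, the SEs above set what was detectable at this depth.

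In heads the members were measured at greater depth and the lines stood together. mir-286 had 647 and 999 counts in Red*, 631 and 592 in White*, 888 and 667 in Fab2L, and 550 and 672 in w1118. In CPM these were 39.3 and 52.1 in Red*, 47.8 and 45.4 in White*, 43.9 and 40.3 in Fab2L, and 45.8 and 44.6 in w1118. The w1118 values lay inside the range of the others, and the widest gap was between the 2 Red* libraries. The mean of the 3 lines over w1118 had a log2 fold change of 0.023 (SE 0.11, adjusted p = 0.907 by edgeR).

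mir-5 averaged 14.3 ± 1.35 CPM in Red* heads, 15.5 ± 1.19 in White*, 15.2 ± 0.680 in Fab2L and 14.5 ± 1.29 in w1118 (SD, n = 2 each). The mean of the 3 lines over w1118 was at 0.080 (SE 0.11, adjusted p = 0.626 by edgeR). mir-3 had 19 to 29 counts in the 6 Fab2L-bearing head libraries and 19 and 23 in w1118, and mir-4 had 9 to 14 against 7 and 10. Their log2 fold changes in the same comparison were 0.012 (SE 0.21, adjusted p = 0.986) and 0.20 (SE 0.32, adjusted p = 0.724) by edgeR. mir-3 and mir-4 are thus seen in every head library, at a lower level than mir-5.

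The remaining hairpins of the cluster were near the limit of detection in heads. mir-6-3 had 2 to 7 counts in Fab2L-bearing heads and 2 and 3 in w1118 heads. mir-309 had 0 to 3 and 1 and 0 counts in these groups, and mir-6-1 had 0 to 2 and 0 and 2. mir-6-2 had 0 in all 8. None of the 4 passed the filter. Of the 4 that did pass, mir-286, mir-5, mir-3 and mir-4, edgeR called 0 in any of the 7 head comparisons and 0 had an unadjusted p below 0.05. DESeq2 called 0 for the mean of the 3 lines over w1118, a comparison in which edgeR called 15.7% of the 172 head hairpins. In the other 6 it called 9.88% (Red* over w1118), 9.3% (White* over w1118), 8.72% (Fab2L over w1118), 2.33% (Red* over Fab2L), 0.581% (White* over Fab2L) and 2.33% (Red* over White*), so 0 of 4 members is near the background.

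**Figure D2:**
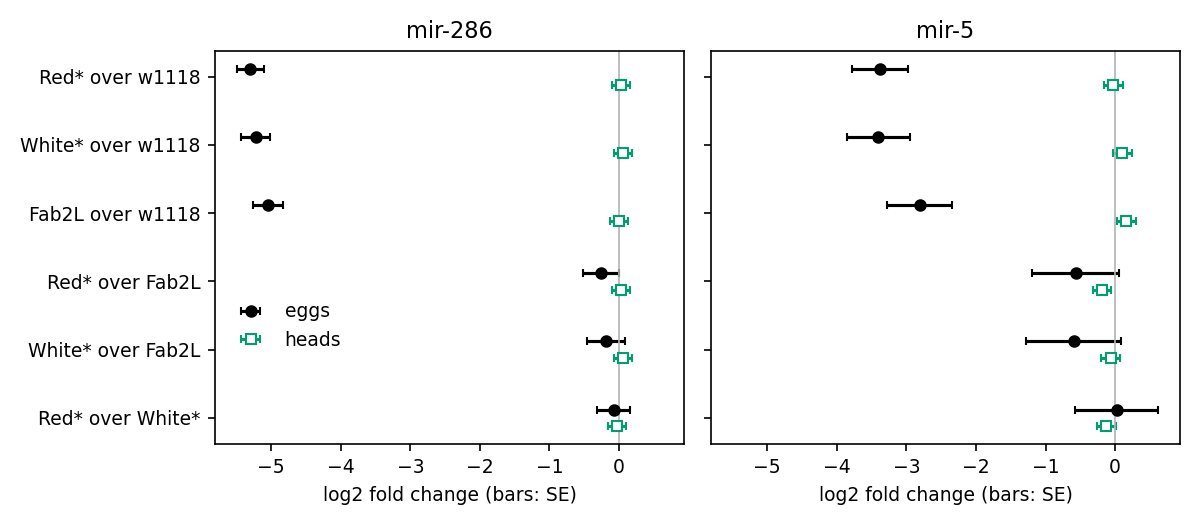
Log2 fold change (points) with its standard error (bars) from edgeR for mir-286 (left) and mir-5 (right), for 6 pairs of lines. Filled circles are eggs and open squares heads. The 3 egg comparisons with w1118 lie between -5.30 and -5.04 for mir-286 and between -3.40 and -2.81 for mir-5, and the remaining points lie near 0.

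The line effect in eggs minus that in heads was taken from 1 edgeR fit of all 16 libraries, for the mean of the 3 lines over w1118. It was -5.75 for mir-286 (SE 0.37) and -3.85 for mir-5 (SE 0.33) on the log2 scale, beside 27.3% of the 161 hairpins called lower. Its size moved with the libraries and the scaling. Leaving out any 1 of the 8 head libraries gave -5.17 to -4.84 for mir-286 and -3.14 to -3.03 for mir-5, and without scaling the values were -5.18 and -3.26. For mir-3 and mir-4, at 0 in most Fab2L-bearing egg libraries, such a fitted value would depend on the prior count and is not given.

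For eggs over heads, unscaled values stand beside the scaled ones, because the TMM factors of the egg libraries ran between 0.274 and 2.49 in the joint fit. Without scaling, mir-286 in w1118 eggs over w1118 heads had a log2 fold change of 5.50, and with TMM 7.19 (SE 0.36). mir-5 in w1118 had 2.82 without scaling and 4.50 with TMM (SE 0.27). Both were higher in w1118 eggs than in w1118 heads under either scaling, in a comparison where 26.7% of the 161 hairpins were called higher.

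In the Fab2L-bearing lines the direction for mir-5 hung on the scaling. mir-286 in eggs over heads was at 0.16 without scaling and 1.97 with TMM in Red*, 0.019 and 2.13 in White*, and 0.80 and 0.23 in Fab2L. mir-5 was at -0.57 without scaling and 1.24 with TMM in Red*, -0.92 and 1.13 in White*, and 0.16 and -0.41 in Fab2L. For the mean of the 4 lines mir-286 was at 1.62 without scaling and 2.88 with TMM, and mir-5 at 0.37 and 1.62. Under TMM 23.6% of the 161 hairpins were called higher in eggs for this mean, and the median over all hairpins was -2.10. As plain shares, mir-286 in Fab2L-bearing eggs (41.8 to 77.8 CPM) overlapped with mir-286 in the 8 head libraries (39.3 to 52.1).

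The makeup of the cluster differed between w1118 eggs and the other libraries. For every 100 counts of mir-286 there were 19.0 of mir-5 in Fab2L-bearing eggs (95% interval 13.2 to 26.8, 40 against 210 counts), 4.99 in w1118 eggs (4.02 to 6.13, 96 against 1923) and 33.0 in heads (31.3 to 34.8, 1865 against 5646). These intervals rest on counts pooled over libraries and cover counting error only. The high mir-286 of w1118 eggs was known when the cluster was picked, so the ratios are a description with no test. By library the ratio was 12.5 to 26.8 in Fab2L-bearing eggs, 4.74 and 5.18 in w1118 eggs, and 25.5 to 39.0 in heads. mir-286 was 78.6% to 88.9% of the cluster counts in Fab2L-bearing eggs, 94.5% and 94.9% in w1118 eggs, and 68.8% to 76.8% in heads. Over pooled counts, mir-5 stood at 0.0989 of its w1118 egg level in Fab2L-bearing eggs and mir-286 at 0.0259.

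mir-3 showed the same order in heads, at 3.40 per 100 counts of mir-286 (2.93 to 3.93), against 0.312 in w1118 eggs (0.114 to 0.680). mir-4 stood at 1.52 (1.22 to 1.88) in heads and 0.312 (0.114 to 0.680) in w1118 eggs. In Fab2L-bearing eggs the counts of both (2 and 1) were too few to place them between these values.

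**Figure D3:**
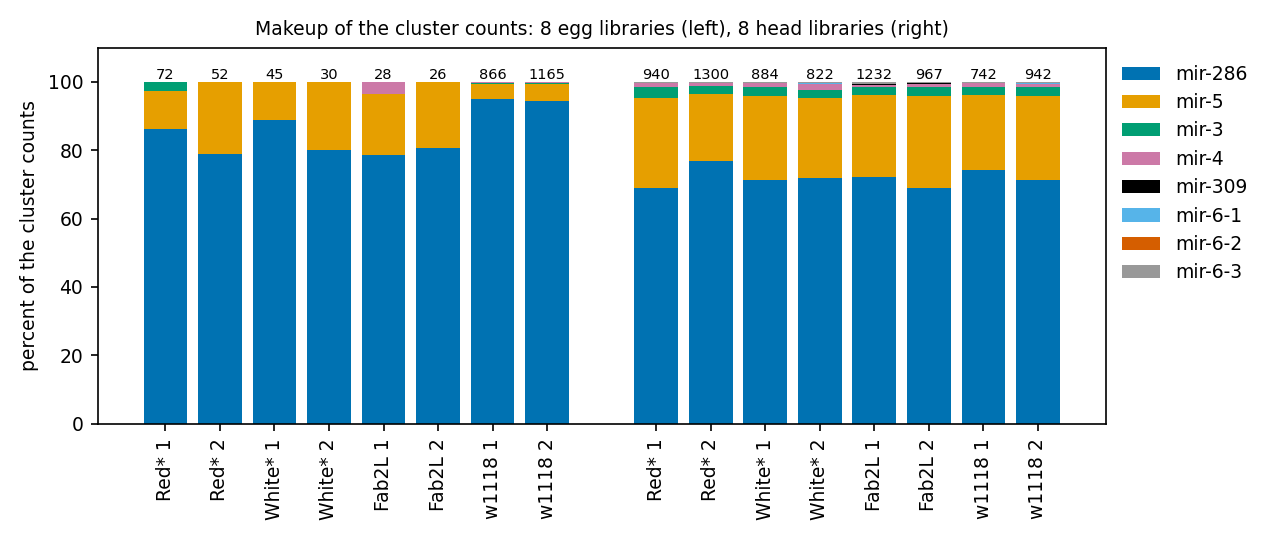
Percent of the cluster counts that fell on each member, in 1 bar per library, with eggs left and heads right and the number of cluster counts above each bar. In the 2 w1118 egg libraries mir-286 makes up 94.5% and 94.9% of 1165 and 866 counts, and in the 8 head libraries 68.8% to 76.8%.

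Among the 73 hairpins with a mean of at least 10 counts in eggs, mir-286 had the highest and mir-5 the next highest ratio of w1118 to the mean of the other lines. mir-286 was the only one of the 73 above 10-fold, while 8 were above 5-fold. The cluster was picked with the high mir-286 of w1118 eggs known, so these ranks are a description. mir-5, at 5 to 11 counts in the Fab2L-bearing egg libraries, met the mean of 10 counts through w1118. In 27.4% of the 73 both w1118 libraries lay above all 6 others, as they did for mir-286 and mir-5, and in 13.7% below. The hairpins whose log2 level followed mir-286 most closely over the 8 egg libraries were mir-5 (Pearson r = 0.964), mir-318 (0.917), mir-994 (0.893), mir-252 (0.813) and mir-284 (0.804). These r values describe 8 points that share their libraries and fall into 2 sets by line, so they carry no test. mir-5 had the same 4 hairpins after mir-286, with mir-318 at 0.959.

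mir-318, which shares the seed of mir-3 and mir-309, had 64.0 and 96.6 CPM in Red* eggs, 51.7 and 60.9 in White*, 154 and 92.6 in Fab2L, and 350 and 334 in w1118. It was lower in the mean of the 3 lines over w1118 (log2 fold change -2.07, SE 0.20), where edgeR called 40.8% of the 76 hairpins lower. mir-318 was among the hairpins picked as most like mir-286 over these same egg libraries, so its value is a description with no test. Neither seed partner of mir-286 was lower. mir-279 had 683 to 1563 CPM in Fab2L-bearing eggs and 837 and 963 in w1118 eggs (0.27, SE 0.14, adjusted p = 0.111). mir-996 had 2575 to 5027 against 2392 and 2544 and rose in the same comparison (0.60, SE 0.11, adjusted p = 0.000309). In w1118 eggs mir-286 thus stood at 1907 and 2190 CPM beside mir-996 at 2392 and 2544.

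Partners of the other seeds were also present in eggs of every line. mir-79, partner of mir-4, had 11.6 to 48.2 CPM in Fab2L-bearing eggs and 11.9 and 20.9 in w1118 eggs (0.58, SE 0.49, adjusted p = 0.318). For the mir-6 seed, mir-11 was at 7360 to 10841 against 7486 and 7686 (0.17, SE 0.08, adjusted p = 0.0981), and mir-308 at 37.7 to 110 against 32.5 and 45.7 (0.62, SE 0.31, adjusted p = 0.0981). The edgeR test called none of these 3. The seed partners were chosen after their values had been seen.

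**Figure D4:**
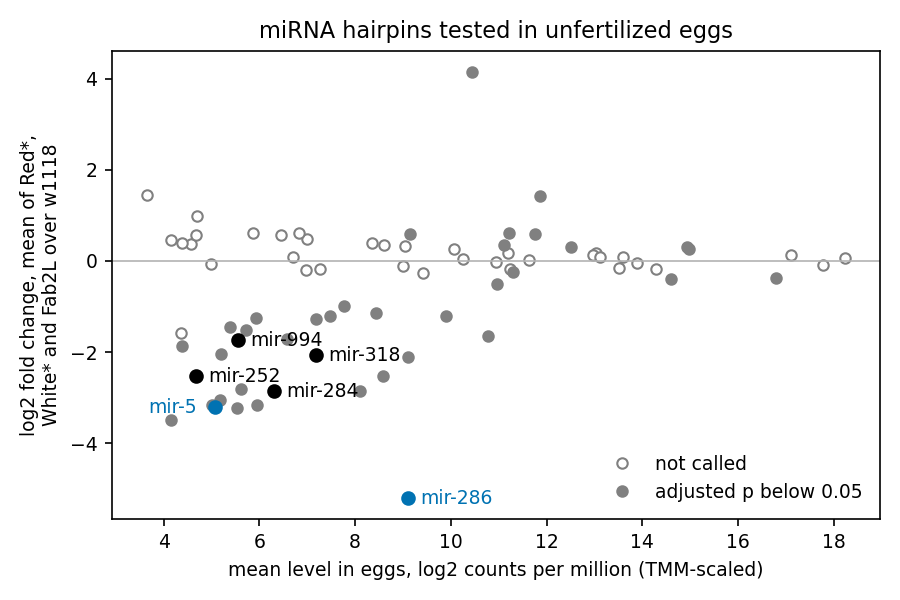
Log2 fold change of the mean of Red*, White* and Fab2L over w1118 against mean egg level, in log2 of TMM-scaled CPM, for the 76 hairpins tested in eggs; filled points have an adjusted p below 0.05 in edgeR. mir-286, at -5.19, is the lowest point, mir-5 lies at -3.20, and the 4 hairpins most like mir-286 outside the cluster are labelled.

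Of 10 listed hairpins known from early zygotic expression outside the cluster, 7 were tested in eggs. In the mean of the 3 lines over w1118 1 was called higher (mir-996) and 1 lower (mir-9a, -1.44, SE 0.37, adjusted p = 0.00323 by edgeR), beside 11.8% higher and 40.8% lower of all 76. The median log2 fold change of the 7 was -0.019, beside -0.13 for all 76. mir-10 (-0.019, adjusted p = 0.88), mir-92a (-0.16, adjusted p = 0.264), mir-279, mir-2b-2 (0.62, adjusted p = 0.0552) and mir-124 (-1.58, adjusted p = 0.0697) were not called by edgeR. mir-1 and mir-iab-4 had 0 to 14 and 0 to 3 counts in eggs, and mir-iab-8 had 0 in all 8.

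Hairpins typical of adult head tissue were in sum lower than w1118 in White* and Fab2L eggs, as mir-286 was, but not in Red* eggs. Of 13 listed neuronal, eye and muscle hairpins, 9 were tested in eggs and 7 of them were called lower in the mean of the 3 lines over w1118, against 40.8% of all hairpins. The summed level of the 13 was 14481 and 14951 CPM in Red* eggs, 6445 and 7153 in White*, 10382 and 10217 in Fab2L, and 13029 and 12907 in w1118. Most of it was mir-8, which did not pass the test (0.12, adjusted p = 0.249 by edgeR). mir-133, a muscle microRNA, had 606 and 1560 CPM in Red* eggs, 72.4 and 73.1 in White*, 94.5 and 111 in Fab2L, and 844 and 865 in w1118. mir-276a had 2463 and 2275 in Red*, 396 and 409 in White*, 1197 and 1015 in Fab2L, and 3185 and 3162 in w1118. The Red* values of mir-133 spanned those of w1118, and those of White* and Fab2L lay below. mir-263b, a hairpin of sensory organs, was at 0 in all White* and Fab2L eggs and at 2.63 and 5.82 CPM in Red*, against 4.64 and 3.98 in w1118. These rest on 3 and 5 counts in Red* and 2 and 2 in w1118. A count of 0 allows up to 3.88 and 5.22 CPM in White* and 9.45 and 11.1 in Fab2L, so no line difference can be read for mir-263b. The part of adult tissue RNA in the mir-286 values was not tested.

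The long RNA tables gave no reading of the primary transcript. All 8 members had a gene entry, and each was listed at 0 FPKM in all 16 long RNA libraries. Of 235 microRNA genes with an entry, 118 were above 0 in at least 1 library and 40 in at least 1 egg library. FPKM of so short a gene in RNA above 200 nt is no measure of the microRNA, and an exact 0 can be a failed estimate: cup, a gene of maternal mRNA repression, was listed at 0 in all 8 egg libraries. lncRNA:CR44504, which spans the cluster, was listed at 0 in all 8 egg libraries and was above 0 in 3 of 8 head libraries, at most at 0.0316 FPKM. Its neighbours CG15125 and CG11018 were listed at 0 in all eggs and reached 0.117 and 0.302 FPKM in heads.

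Of 28 listed mRNAs of the early zygotic genome, 1 was above 1 FPKM in any egg library. Another 15, among them eve, ftz, sna and nullo, were listed at 0 in all 8 libraries, and since cup was listed at 0 as well, such a 0 may be a failed estimate and does not show that the mRNA was absent. The gene above 1 FPKM, hrg, which encodes a poly(A) polymerase, averaged 9.66 ± 0.618 FPKM in Fab2L-bearing eggs (SD, n = 6) and 11.4 ± 0.0631 in w1118 eggs (n = 2). It was lower by limma (log2 difference -0.22, SE 0.04, adjusted p = 0.00562), as were 18.7% of the 6682 genes tested. In heads hrg stood at 20.3 to 24.9 FPKM, so its level is not particular to early zygotic expression. The segmentation gene gt and the dorsal patterning gene zen were at most at 0.0339 and 0.156 FPKM in any egg library.

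zld, which encodes Zelda, averaged 4.58 ± 0.293 FPKM in Fab2L-bearing eggs (SD, n = 6) and 5.21 ± 0.133 in w1118 eggs (n = 2), and did not pass the test (log2 difference -0.16, SE 0.06, adjusted p = 0.0712 by limma). Of the 6 genes listed as activators of the early zygotic genome 4 were tested. The 1 called higher was bin3 (53.8 ± 4.24 against 43.9 ± 1.78 FPKM, 0.28, adjusted p = 0.000749), and 0 were called lower, where limma called 19.3% of all genes higher. bin3 was in the list but encodes a methyltransferase of 7SK RNA, so its change is not read as that of an activator.

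Of the 19 listed genes of maternal mRNA clearance and egg activation, 17 were tested, and 3 were called higher and 2 lower in the mean of the 3 lines over w1118, near or below the 19.3% higher and 18.7% lower of all genes. smg, whose product Smaug recruits deadenylase to maternal mRNAs, was higher, at 141 ± 7.26 FPKM in Fab2L-bearing eggs against 117 ± 0.446 in w1118 eggs (0.26, SE 0.05, adjusted p = 0.00315 by limma). gnu, which encodes a subunit of the Pan Gu kinase, rose (79.9 ± 9.43 against 59.1 ± 5.34, 0.42, adjusted p = 0.00713), and so did tral, which encodes a partner of the repressor Me31B (0.20, adjusted p = 0.00607). In tral the 2 Red* libraries, at 185 and 191 FPKM, stood apart from the 4 of White* and Fab2L, at 85.1 to 97.6, and the w1118 libraries lay at 101 each.

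The 2 that fell were cort, which encodes a meiotic activator of the anaphase-promoting complex (24.3 ± 3.26 against 34.7 ± 1.51 FPKM, -0.50, adjusted p = 0.000195 by limma), and plu, the third Pan Gu subunit gene beside png and gnu (-0.19, adjusted p = 0.015). wisp, which encodes the cytoplasmic poly(A) polymerase that adenylates microRNAs and mRNAs of the egg, had 52.7 ± 2.84 against 55.8 ± 1.54 FPKM (-0.083, adjusted p = 0.269). The median of the 17 was 0.016, beside -0.0047 for all 6682 genes.

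Of 14 microRNA machinery genes, all tested, 3 were called higher and 0 lower, and 3 of 14 is near the 19.3% of all genes called higher. The 3 were pasha, the partner of Drosha in hairpin cropping (13.9 ± 0.388 FPKM in Fab2L-bearing eggs against 11.8 ± 0.433 in w1118 eggs, log2 difference 0.23, adjusted p = 0.00471 by limma), Nbr, an exonuclease that trims microRNA 3′ ends (0.26, adjusted p = 0.0018), and Hen1, a small RNA methyltransferase (0.21, adjusted p = 0.0227). Dcr-1, which cuts the hairpin, had 15.5 ± 1.02 against 14.7 ± 0.355 FPKM (0.065, adjusted p = 0.217). AGO1, the main microRNA Argonaute, had 12.1 ± 0.648 against 12.4 ± 0.0401 (-0.042, adjusted p = 0.526).

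Marker lists for other cells were read in the long RNA of eggs. Of 17 follicle cell and eggshell genes 3 were tested, the yolk protein genes Yp1, Yp2 and Yp3, and all 3 were called higher in the mean of the 3 lines over w1118 by limma. The lines did not go the same way: Yp2 had 5.06 and 5.69 FPKM in Red* eggs, 0.0950 and 0.0203 in White* and 1.84 and 1.34 in Fab2L, against 0.579 and 0.815 in w1118. Both White* libraries were thus below w1118 and those of Red* and Fab2L above. Yp3 stood at 5.60 and 4.90 FPKM in Red*, 0.0987 and 0.0528 in White* and 0.745 and 1.22 in Fab2L, against 0.372 and 0.455 in w1118. The summed list level was 0.304 to 12.4 FPKM in Fab2L-bearing eggs, against 1.87 and 2.11 in w1118 eggs. None of 11 testis and sperm genes passed the filter, and 5 were above 0 in w1118 eggs. Of 11 maternal germline mRNAs, all tested, 4 were lower (bcd, gcl, aub and stau) and 0 higher, beside 18.7% and 19.3% of all genes. The part of any of these lists in the mir-286 result was not tested.

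**Figure D5:**
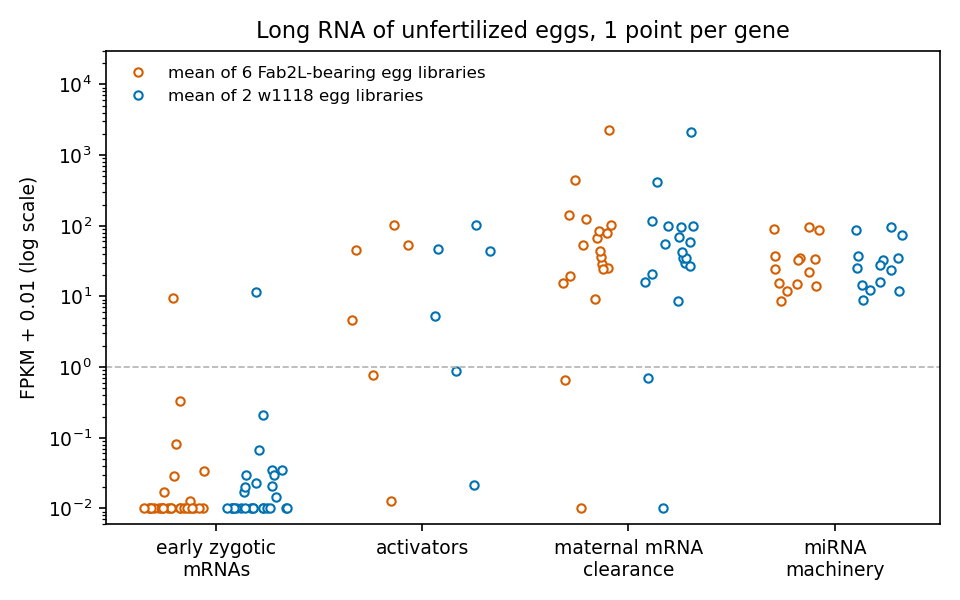
FPKM (plus 0.01, log scale) in eggs of the genes of 4 lists, with 1 point per gene and group; orange points are means of the 6 Fab2L-bearing libraries, left, and blue points means of the 2 w1118 libraries, right. The dashed line marks 1 FPKM. Early zygotic mRNAs lie at the bottom in both groups apart from hrg (9.66 and 11.4), while nearly all clearance and machinery genes lie above the line in both.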

How the data were processed

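The members and lists were chosen with earlier results of these data known, the high mir-286 of w1118 eggs among them. For small RNA the authors deposited a read count per hairpin, with Bowtie and build dm6 per the submitters' processing notes. For long RNA the authors deposited FPKM per gene, with STAR 2.5 and DESeq2 named per the submitters' processing notes. The counting tool and annotation are not given in the sources used here, nor is what makes a read unique. Counts were tested with edgeR 4.0.16 (quasi-likelihood, TMM, filterByExpr, 4 lines per tissue in 1 fit, and all 16 libraries for comparisons across tissues), with DESeq2 1.42.0 as an alternative. FPKM, tested in place of counts, went to limma-trend 3.58.1 as log2(FPKM + 1), for genes above 1 FPKM in at least 2 of 8 egg libraries; differences on this scale understate low genes. Benjamini-Hochberg adjustment ran over all features, with adjusted p below 0.05 called. Shares are counts over summed hairpin counts, and 0 counts are read as at most 3. Long RNA depth was not worked out here. Of the listed genes, the text names those called and zld, AGO1, Dcr-1, wisp and smg, and the 5 hairpins most like mir-286. Variant lists were not used here, and no 2 libraries of a line were copies (chi-square per degree of freedom 7.43 to 754).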

Additional observations from a re-analysis of the deposited data

Results flagged for a closer look

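The effect of the Fab2L-bearing lines over w1118 differed between eggs and heads for both members that could be tested in eggs. The egg effect minus the head effect was -5.75 for mir-286 and -3.85 for mir-5 on the log2 scale, as an interaction in edgeR over 16 libraries. Without single libraries it ran from -6.08 to -4.84 for mir-286 and from -4.21 to -3.03 for mir-5. The cluster was picked with the mir-286 pattern known and mir-5 entered the egg fit through w1118, so both values describe these libraries and no p is given.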

How the results depend on the processing

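mir-286 and mir-5 in eggs over w1118 held their direction in 94 of 94 alternatives. All of these refit the egg libraries on which the cluster was picked, so the count is a description and no support. Left-out libraries gave -5.30 to -4.88 for mir-286 and -3.36 to -2.81 for mir-5 in the mean of 3 lines. In heads 0 of 56 alternatives called a member, all of them for the mean of 3 lines over w1118. For the head comparisons between pairs of lines no alternatives are given. With the 5 top hairpins out of the total, the mean cluster share was 0.0369% in Fab2L-bearing eggs, 1.17% in w1118 eggs, 0.0150% in Fab2L-bearing heads and 0.0146% in w1118 heads; the smaller total is the construction of this alternative. Signs turned, with the cause not tested, for egg mir-286 Red* over White* (0.043 with DESeq2 and RLE factors, 0.042 without a filter, 0.12 unscaled, 0.012 to 0.12 without single libraries), for egg mir-5 Red* over White* (-0.35 to 0.64 without single libraries), and in heads for mir-286 (-0.012 unscaled, -0.036 to 0.11 without single libraries) and mir-3 (-0.021 unscaled). In eggs over heads, mir-286 in Fab2L ran from -0.057 to 2.76 without single libraries, and was called in 7 alternatives. mir-5 in Fab2L turned to 1.37 with DESeq2 and RLE factors, 1.63 without a filter, 0.16 unscaled and 0.84 without the top hairpins, and to -0.66 to 2.23 without single libraries. Unscaled, mir-5 was at -0.57 in Red* and -0.92 in White*. Without single libraries the number of egg hairpins called ran from 16 to 43 (Red* over w1118, 27 with all), 29 to 53 (White* over w1118, 48 with all), 7 to 18 (White* over Fab2L, 22 with all) and 30 to 53 (Red* over White*, 51 with all), that of head hairpins in the mean of 3 lines from 11 to 31 (27 with all), and that of egg genes from 1392 to 2799 (2539 with all). Replicate numbers did not pair the libraries (correlations of -0.339 to 0.0846 in eggs and -0.359 to 0.138 in heads). With the replicate block mir-286 was at -5.19 and mir-5 at -3.18 in eggs, and zld passed at an adjusted p of 0.0355, as it did without Fab2L replicate 1 (0.0475; range over its alternatives 0.0355 to 0.304). The files hold 1 count column, so no other column was tried. Depth limits mir-3 and mir-4 in eggs.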
